A study of Mus musculus with 6 samples.

Results

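Adhesion G protein-coupled receptors were examined in immortalized stromal vascular cells of mouse inguinal white fat that had been sorted for high or low binding of FcsFNDC4, the soluble part of FNDC4 fused to an antibody Fc fragment. The family was taken as every gene whose symbol starts with Adgr, together with Celsr1, Celsr2 and Celsr3, and whose transcript cluster, the set of array probes read together, carries this 1 symbol. This gave 29 of the 19938 genes measured in this way, 28 of them protein coding and 1, Adgrd2-ps, a transcribed pseudogene. Adgrf3 and Adgrg5 had no transcript cluster in the annotation used and were not analysed here. Adgrf5 is the current symbol of Gpr116, the receptor that the study followed up.

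High binding cells (HBC) and low binding cells (LBC) both derive from 1 immortalized line of male 129SVE mice, and both were sorted and expanded again until passage 20. By the labels the groups differ in no genotype or drug, and neither the way of immortalization nor the age of the mice is given there. RNA of each population was measured on 3 Affymetrix gene arrays, which the labels call technical replicates. Each group is therefore 1 sorted population, and all p-values measure the spread between arrays and not that between independent sorts. For LBC replicates 2 and 3 the source name reads HBC, whereas title, description and cell phenotype read LBC, and the title was followed. With this grouping, log2 values over all genes correlated at 0.9961 to 0.9986 between arrays of the same group. Between an HBC and an LBC array the correlation was 0.9801 to 0.9857. None of the called receptors below turned in direction when LBC replicates 2 and 3 were left out. This leaves 1 LBC array that is assumed to vary like the HBC arrays. Of the 11 preadipocyte markers measured, Pdgfra and Pparg were bright in both groups. Pdgfra had an intensity of 4148, 4331 and 3808 in HBC and 2923, 3105 and 3472 in LBC. Pparg read 1716, 1701 and 1705 in HBC and 1257, 1316 and 1506 in LBC. Cd34 averaged 134 in HBC and 189 in LBC. Dpp4 was low, with a mean of 44.8 in HBC and 45.3 in LBC, and so was Lum, at 37.6 in HBC and 39.5 in LBC. Intensities were compared as log2(intensity + 16) with limma, and calls needed an adjusted p (Benjamini-Hochberg over the 19938 genes) under 0.05 together with a fold above 1.5.

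Adhesion receptors carry a very long extracellular part that many of them cut themselves, close to the membrane, within a domain named GAIN. The new end of the remaining receptor then acts as a tethered agonist, and binding of matrix or cell surface proteins to the extracellular part can shift signaling through G proteins. Family members are known from leukocyte surfaces, synapses, myelinating glia, endothelium and lung epithelium, where Gpr116 (Adgrf5) limits the surfactant pool of alveolar type II cells.

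The starts of the genes that differed most are shown first, as listed by RefSeq for GRCm38.p6, to set the start regions of 2 receptors that rose beside that of 1 that fell. Each window runs 5′ to 3′ from 250 bases before to 50 bases after an annotated start, and capitals mark the CG dinucleotides.
Adgrf5 upstream start, chr17:43360181-43360480, plus strand: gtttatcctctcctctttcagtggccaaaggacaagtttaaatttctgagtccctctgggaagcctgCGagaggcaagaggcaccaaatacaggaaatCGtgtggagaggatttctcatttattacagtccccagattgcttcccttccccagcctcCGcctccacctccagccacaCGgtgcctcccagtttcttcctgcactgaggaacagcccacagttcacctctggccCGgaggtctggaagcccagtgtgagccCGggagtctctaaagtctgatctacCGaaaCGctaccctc
Adgrf5 downstream start, chr17:43389216-43389515, plus strand: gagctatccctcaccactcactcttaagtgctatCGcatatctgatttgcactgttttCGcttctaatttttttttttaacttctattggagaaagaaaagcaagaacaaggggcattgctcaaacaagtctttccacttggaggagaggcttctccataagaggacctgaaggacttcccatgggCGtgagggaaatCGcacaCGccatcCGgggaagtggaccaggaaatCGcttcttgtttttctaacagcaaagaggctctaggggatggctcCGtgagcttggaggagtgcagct
Adgrg2, chrX:160390440-160390739, plus strand: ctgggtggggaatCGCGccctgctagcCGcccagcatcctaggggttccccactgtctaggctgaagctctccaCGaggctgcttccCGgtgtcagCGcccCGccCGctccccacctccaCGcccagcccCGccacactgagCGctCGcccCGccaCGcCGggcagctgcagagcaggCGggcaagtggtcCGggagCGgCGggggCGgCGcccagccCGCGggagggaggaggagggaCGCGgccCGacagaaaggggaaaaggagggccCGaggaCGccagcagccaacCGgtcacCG
Adgrg6, chr10:14544987-14545286, minus strand: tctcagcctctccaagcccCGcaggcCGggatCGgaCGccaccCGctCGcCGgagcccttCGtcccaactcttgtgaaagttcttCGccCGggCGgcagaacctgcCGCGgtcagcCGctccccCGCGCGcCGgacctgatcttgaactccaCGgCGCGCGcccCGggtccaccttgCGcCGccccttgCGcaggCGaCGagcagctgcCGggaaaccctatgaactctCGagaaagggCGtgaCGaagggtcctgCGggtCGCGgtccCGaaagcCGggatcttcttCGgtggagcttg
Both Adgrf5 windows held 8 CG dinucleotides, near the median of 7 over all 32851 mouse windows of this kind, with a GC content of 54.3% and 47.3%. Over the 25 windows of the family the median was 14 CG dinucleotides and a GC content of 59.0%. The Adgrg2 window, of a gene that was also higher in HBC, held 30 (GC content 74.0%), and that of Adgrg6, which was lower, held 38 (69.0%). The windows were searched on both strands for the interferon-stimulated response element (GAAA, any 2 bases, GAAA), TTCNNNGAA (the interferon gamma activated site), GGGCGG (the GC box) and TATAAA (the TATA box). The first and the second of these can overlap. None of the 4 was found in either Adgrf5 window, and GGGCGG was found 3 times in that of Adgrg2 and 2 times in that of Adgrg6. These letters stand in 35.7% of all windows and in 52.0% of the 25 windows of the family. The response element stands in 3.44% of all windows, TTCNNNGAA in 8.3% and TATAAA in 13.6%, and of the called receptors with a window only Adgrl2 held TTCNNNGAA and TATAAA. A start window was listed for 21 of the 29 genes, 25 windows in all, and not for Adgre5.

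Of the 29 receptors, 3 were called higher in HBC (Adgrf5, Adgrg2 and Adgre5), 2 were called lower (Adgrg6 and Adgrl2) and 24 were not called. Over all genes, 2.54% were called higher, 1.13% lower and 3.67% in either direction. The median log2 fold change, HBC minus LBC, was -0.09 over the 29 receptors and -0.07 over all genes. Gpr116 was chosen by the study from these same arrays, so its rise is not independent evidence for the family. Apart from the arrays, the paper reports higher GPR116 mRNA and protein in HBC than in LBC. As in any bulk sample, fewer cells that use a gene and less RNA of it per cell cannot be told apart.

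**Figure D1:**
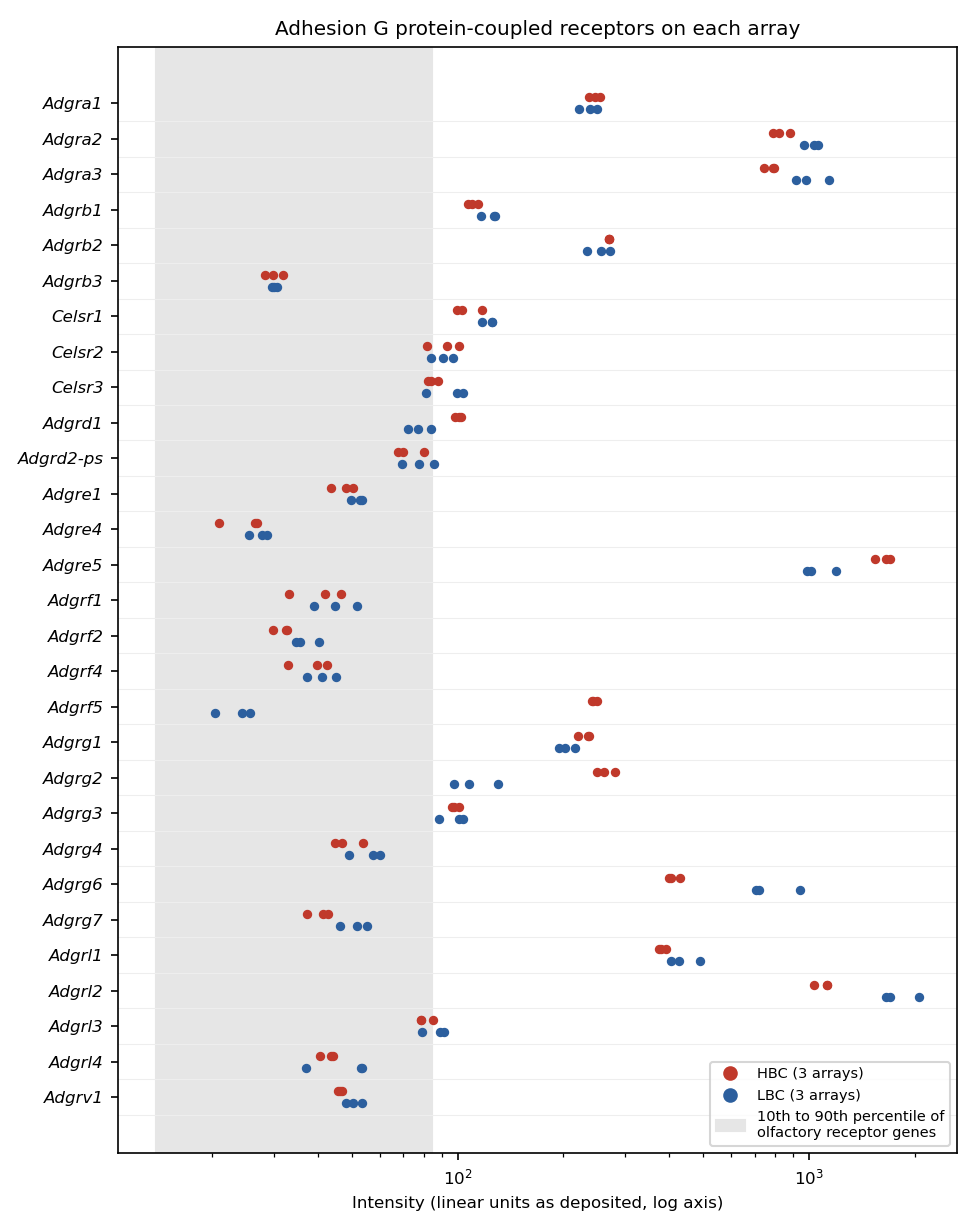
Intensity (linear units, log axis) of the 29 adhesion receptor genes on each array, with 3 HBC arrays in red above 3 LBC arrays in blue for each gene. The grey band is the 10th to 90th percentile (13.9 to 84.5) of 1015 olfactory receptor genes, and Adgrf5 is above it on the HBC arrays and inside it on the LBC arrays.

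Subfamily F holds Gpr116 and 3 measured relatives. Adgrf5 read 249.5, 243 and 240.4 in HBC, against 25.8, 24.4 and 20.4 in LBC. The 3 HBC arrays lay close together and far above every LBC array. Its mean was 244 ± 4.72 in HBC and 23.5 ± 2.77 in LBC (SD, n = 3 each), a ratio of 10.4. The log2 fold change was 2.72, with a 95% confidence interval of 2.55 to 2.90 (adjusted p = 1.6e-20, limma). On the LBC arrays Adgrf5 was within the range of olfactory receptor genes, which are not expected in these cells and serve here as a guide to dim signal, so the ratio rests on dim LBC values.
The other receptors of subfamily F were dim in both groups. Adgrf1 (GPR110 in older naming), known as the receptor of the lipid synaptamide, read 41.9, 33.2 and 46.7 in HBC and 51.8, 44.9 and 39.0 in LBC, and the groups overlapped. Its gene is the direct neighbour of Adgrf5, and its log2 fold change was -0.12 (95% confidence interval -0.31 to 0.08). Adgrf2 and Adgrf4 had log2 fold changes of -0.15 and -0.07 and were not called.

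Subfamily G contributed one receptor in each direction. Adgrg2 (GPR64), best known from the epididymal ducts where it is needed for fluid handling and male fertility, read 262, 280.4 and 249 in HBC, against 97.8, 108 and 129.9 in LBC. The lowest HBC array lay well above the highest LBC array. The mean was 264 ± 15.8 in HBC and 112 ± 16.4 in LBC (SD, n = 3 each), a ratio of 2.36. On the log2 scale HBC exceeded LBC by 1.13, with a 95% confidence interval of 0.94 to 1.33 (adjusted p = 5.4e-11, limma).
Adgrg6 (GPR126), which drives myelination by Schwann cells and binds collagen IV, laminin-211 and the prion protein, read 399.9, 405 and 429.6 in HBC, against 707, 719.9 and 938 in LBC. All HBC arrays were below all LBC arrays, and LBC replicate 3 stood apart from the other LBC arrays. The mean was 412 ± 15.9 in HBC and 788 ± 130.04 in LBC (SD, n = 3 each). The log2 fold change was -0.90 (95% confidence interval -1.10 to -0.70, adjusted p = 1.5e-08, limma). After quantile normalization, which gives all arrays the same distribution of values, Adgrg6 read 407, 402 and 447 in HBC and 753, 733 and 843 in LBC, so LBC replicate 3 moved closer to the others.
The remaining receptors of this subfamily were not called. Adgrg1 (GPR56), a collagen III receptor of cortical development, had all HBC arrays above the LBC arrays, at 234, 219.5 and 237 in HBC against 202, 194 and 216 in LBC, with a log2 fold change of 0.16 (adjusted p = 0.20, limma). Adgrg7 read 42.8, 37.3 and 41.4 in HBC and 55.2, 51.9 and 46.2 in LBC, a log2 fold change of -0.25 that passed the adjusted p (0.045, limma) and not the fold. Adgrg3 (GPR97), a receptor of neutrophils, and Adgrg4 had log2 fold changes of 0.01 and -0.15.

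Subfamily L holds the latrophilins Adgrl1, Adgrl2 and Adgrl3, which bind teneurins and FLRT proteins on neighbouring cells and are known as synaptic organizers, and the endothelial receptor Adgrl4 (ELTD1). Adgrl2 read 1120.1, 1125 and 1029 in HBC, against 1655, 1699.8 and 2049 in LBC. Every HBC array was below every LBC array. The mean was 1091 ± 54.3 in HBC and 1801 ± 216 in LBC (SD, n = 3 each). The log2 fold change was -0.71 (95% confidence interval -0.90 to -0.52, adjusted p = 5.3e-07, limma). Adgrl2 was the 1 receptor with more than 1 transcript cluster, and its 8 clusters give readings of different probes on the same RNA. In all 8 of them the HBC arrays were below the LBC arrays, with log2 fold changes from -1.04 to -0.40. When every cluster on the array was tested, 7 were called lower. The exception was a dim cluster with a mean of 50.4 ± 3.73 in HBC and 72.2 ± 12.4 in LBC (SD, n = 3 each). It missed both the fold threshold, at a log2 fold change of -0.40, and the adjusted p (0.054, limma). The widest difference was that of a cluster with 129.9 ± 7.35 in HBC and 285 ± 34.7 in LBC (SD, n = 3 each).

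**Figure D2:**
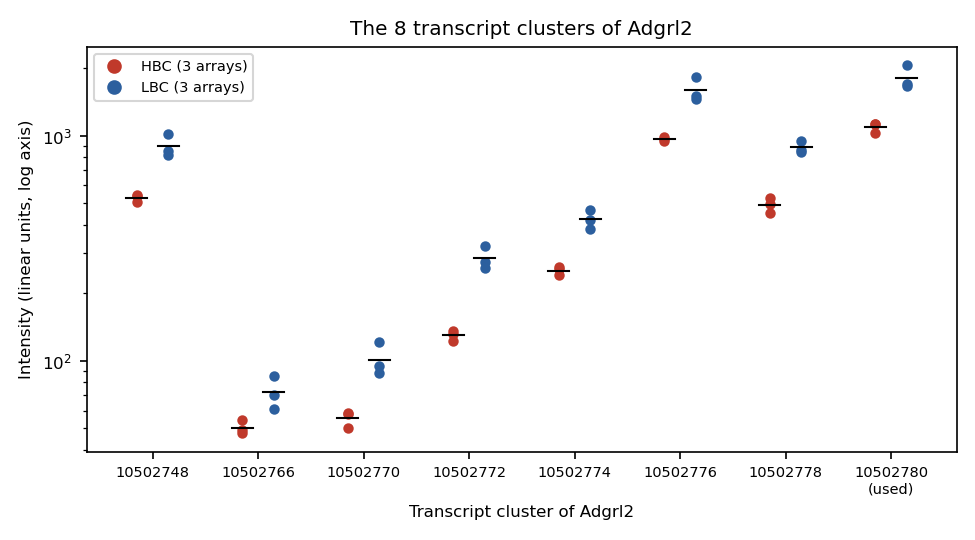
Intensity (linear units, log axis) of the 8 transcript clusters of Adgrl2, with 3 HBC arrays in red to the left of 3 LBC arrays in blue, where short black lines give each mean. HBC lie below LBC in all 8 clusters, and the cluster marked as used has the highest mean.

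Of the others in subfamily L, Adgrl1 read 393, 378 and 373 in HBC and 405, 426 and 488 in LBC, with no overlap of the groups and a log2 fold change of -0.19 (adjusted p = 0.13, limma). Adgrl3 and Adgrl4 had log2 fold changes of -0.08 and -0.11, and their groups overlapped.

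Subfamily E holds receptors of blood cells. Adgre5 (CD97), which is widely expressed on leukocytes and also on smooth muscle and stromal cells and binds CD55 and THY1, read 1656, 1693 and 1536 in HBC, against 985, 1009 and 1188 in LBC. The groups did not overlap. Its mean was 1628 ± 82.3 in HBC and 1061 ± 110.7 in LBC (SD, n = 3 each), and the log2 fold change of 0.61 (95% confidence interval 0.43 to 0.80, adjusted p = 4.6e-06, limma) was just past the fold threshold. Leaving out LBC replicate 1 (log2 fold change of 0.56) or LBC replicate 2 (0.58) ended the call. The macrophage receptor Adgre1 (F4/80) was dim at 48.2, 43.8 and 50.5 in HBC and 49.7, 52.8 and 53.4 in LBC, and the myeloid Adgre4 was dim at 26.6, 21.0 and 26.9 in HBC and 28.6, 27.8 and 25.5 in LBC. Both overlapped between the groups.

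No other subfamily held a called receptor. In subfamily A, Adgra2 (GPR124), a co-receptor for WNT7 in brain vessels, read 820.04, 879.5 and 791 in HBC against 964, 1032 and 1059 in LBC, and Adgra3 (GPR125), a marker of testis stem cells, read 791, 788 and 742 in HBC against 919, 978 and 1140 in LBC. In both, HBC arrays were below all LBC arrays and the adjusted p passed (0.015 and 0.0028, limma), while log2 fold changes of -0.29 and -0.38 did not reach the fold threshold. Adgra1, a brain receptor, had a log2 fold change of 0.05.
Adgrd1 (GPR133), a receptor that signals through Gs in cell lines, went the other way, at 98.4, 102 and 101 in HBC against 83.9, 77.2 and 72.1 in LBC. Its groups did not overlap, and its log2 fold change of 0.32 (adjusted p = 0.0074, limma) was also under the fold threshold. Without a fold threshold, 4 receptors were higher and 5 lower, and over all genes 6.93% were higher and 11.4% lower.
The BAI receptors Adgrb1, Adgrb2 and Adgrb3, known from the uptake of dying cells and from synapses, had log2 fold changes of -0.14, 0.08 and 0.00. The cadherin-like Celsr1, Celsr2 and Celsr3, which align cells within a sheet, had -0.18, 0.02 and -0.13. Adgrv1, a hair cell receptor whose loss causes Usher syndrome, had -0.09, and the pseudogene Adgrd2-ps -0.08. Over the 24 receptors not called, log2 fold changes ran from -0.38 to 0.32, and their 95% confidence intervals from -0.56 to 0.49.

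**Figure D3:**
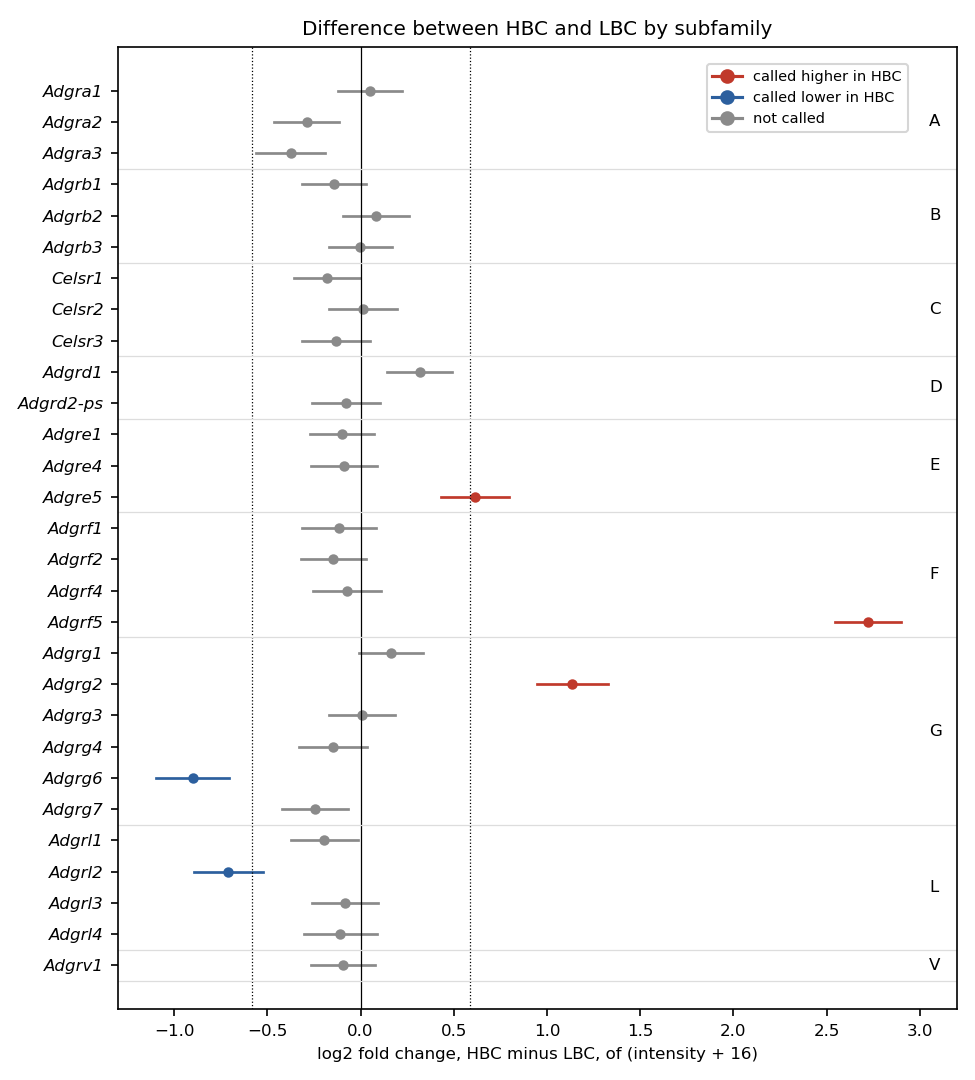
Difference in log2(intensity + 16), HBC minus LBC, for the 29 receptors, grouped by subfamily letter, with 95% confidence intervals from limma over 3 arrays per group and dotted lines at the fold threshold of 1.5. Adgrf5, Adgrg2 and Adgre5 in red were called higher, Adgrg6 and Adgrl2 in blue lower, and the 24 in grey were not called.

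Groups without overlap were counted for the whole family as well. In 5 receptors all HBC arrays lay above all LBC arrays, against 10.1% of all genes, and in 9 all HBC arrays lay below, against 25.1% of all genes. The 5 were Adgrf5, Adgrg2, Adgre5, Adgrd1 and Adgrg1, and the 9 were Adgrg6, Adgrl2, Adgra2, Adgra3, Adgrg7, Adgrl1, Adgrb1, Adgrf2 and Adgrv1. Of the 29 receptors, 11 were below the 90th percentile of the olfactory receptor genes (84.5) in both groups, and changes in these could be missed.

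The measured genes nearest to the 5 called receptors were looked at, 3 on either side in RefSeq gene order. Unmeasured genes can stand between them. Among these 30 neighbours, 1 was higher and 2 were lower, against 2.54% higher and 1.13% lower over all genes. Beside Adgrf5, Tnfrsf21, the gene of death receptor DR6, was lower (log2 fold change of -0.63, adjusted p = 3.5e-06, limma), against the direction of Adgrf5, and the other 5 neighbours had log2 fold changes from -0.19 to 0.10. Beside Adgre5, Ptger1, a receptor of prostaglandin E2, was higher at 366 in HBC against 112 in LBC on average (log2 fold change of 1.58, adjusted p = 1.3e-15, limma), and Ddx39a, which stands between them, had -0.35 and was not called. On one side of Adgrl2 the nearest measured gene, with 13 unmeasured genes between, was Ttll7, a tubulin glutamylase. Ttll7 was lower like Adgrl2 itself (log2 fold change of -0.72, adjusted p = 6.7e-07, limma). None of the neighbours of Adgrg2 or Adgrg6 was called, with log2 fold changes from -0.37 to 0.44 around Adgrg2 and from -0.53 to -0.02 around Adgrg6.

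**Figure D4:**
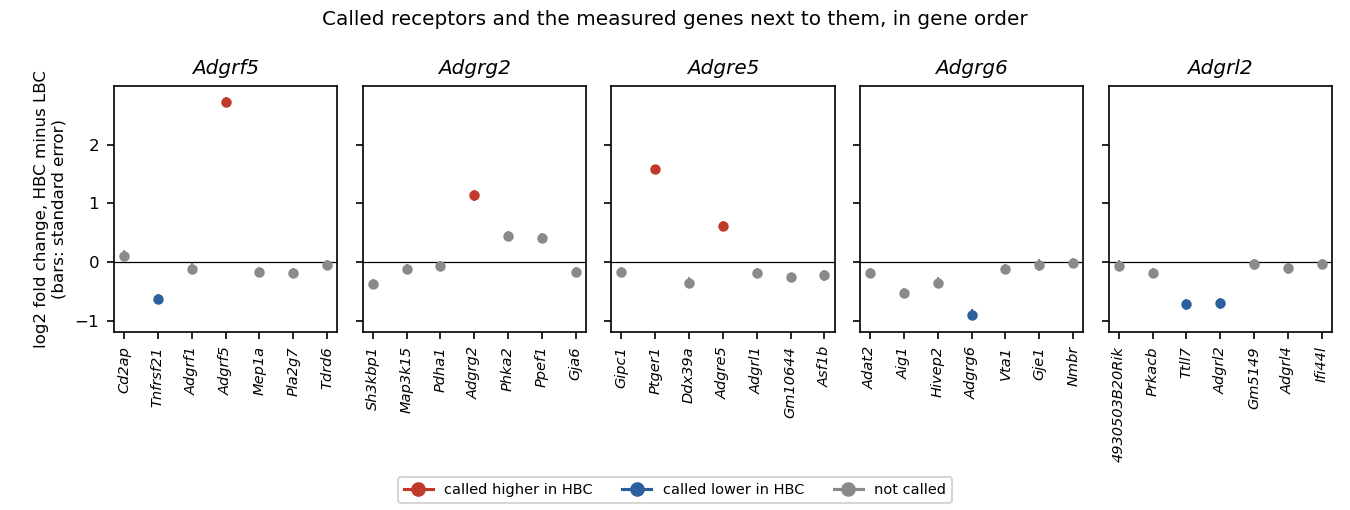
Difference in log2(intensity + 16), HBC minus LBC, for each of the 5 called receptors and its 3 measured neighbours on either side in gene order (evenly spaced, not to genomic scale), with standard errors from limma over 3 arrays per group. Adgrf5 stands alone among its neighbours at 2.72, and Ptger1 at 1.58 is the highest neighbour of any receptor.

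Ligands and partners of the family were taken from a list of 40 genes, of which 37 were measured. The test called 2 of them higher in HBC and 3 lower and left 32 uncalled, with a median log2 fold change of -0.10. For all genes, 2.54% were called higher and 1.13% lower, with a median of -0.07. Fndc4 itself, the gene of the ligand used for sorting, read 93.1, 90.9 and 86.6 in HBC, against 158, 168 and 157 in LBC, with a log2 fold change of -0.74 (adjusted p = 5.4e-08, limma). Fndc4 was thus lower where Adgrf5 was higher, and its groups did not overlap. Sftpd and Sftpa1, genes of surfactant proteins that have been linked to Gpr116 in lung, had log2 fold changes of -0.10 and -0.16 and were not called.
Collagen III, the ligand of Adgrg1, is encoded by Col3a1, which read 2928, 3170.1 and 2808 in HBC against 1593, 1737 and 1758 in LBC (log2 fold change of 0.80). Of the ligands of Adgrg6, the prion protein gene Prnp had a log2 fold change of 0.51, Col4a1 of 0.35 and Col4a2 of 0.37, all with an adjusted p under 0.05 and a fold below the threshold, while Adgrg6 was lower. Lama2, Lamb1 and Lamc1, the chains of laminin-211, had -0.05, -0.14 and 0.14.
Among the ligands of latrophilins, Flrt3 read 78.8, 69.3 and 69.7 in HBC against 144, 127 and 157 in LBC and was lower, by a log2 fold change of -0.84. Flrt2 had -0.41, which passed the adjusted p (0.0011, limma) and not the fold. Flrt1 had 0.03, and the teneurins Tenm1 to Tenm4 lay between -0.21 and -0.06. The ligands of Adgre5, Cd55 and Thy1, had -0.17 and -0.14 and were not called.
Rtn4rl1, of the Nogo receptor family that binds BAI receptors, was higher at 342, 358 and 339.6 in HBC against 179, 154 and 195 in LBC (log2 fold change of 0.92). Fzd3, the frizzled partner of CELSR proteins in axon guidance, was lower at 39.6, 43.3 and 35.8 in HBC against 83.3, 84.8 and 107 in LBC (log2 fold change of -0.95). On the HBC arrays Fzd3 was within the range of olfactory receptor genes. Its relative Fzd6 and the planar polarity gene Vangl2 had -0.38 and -0.44. Both passed the adjusted p (0.0011 and 0.00034, limma) and not the fold.

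**Figure D5:**
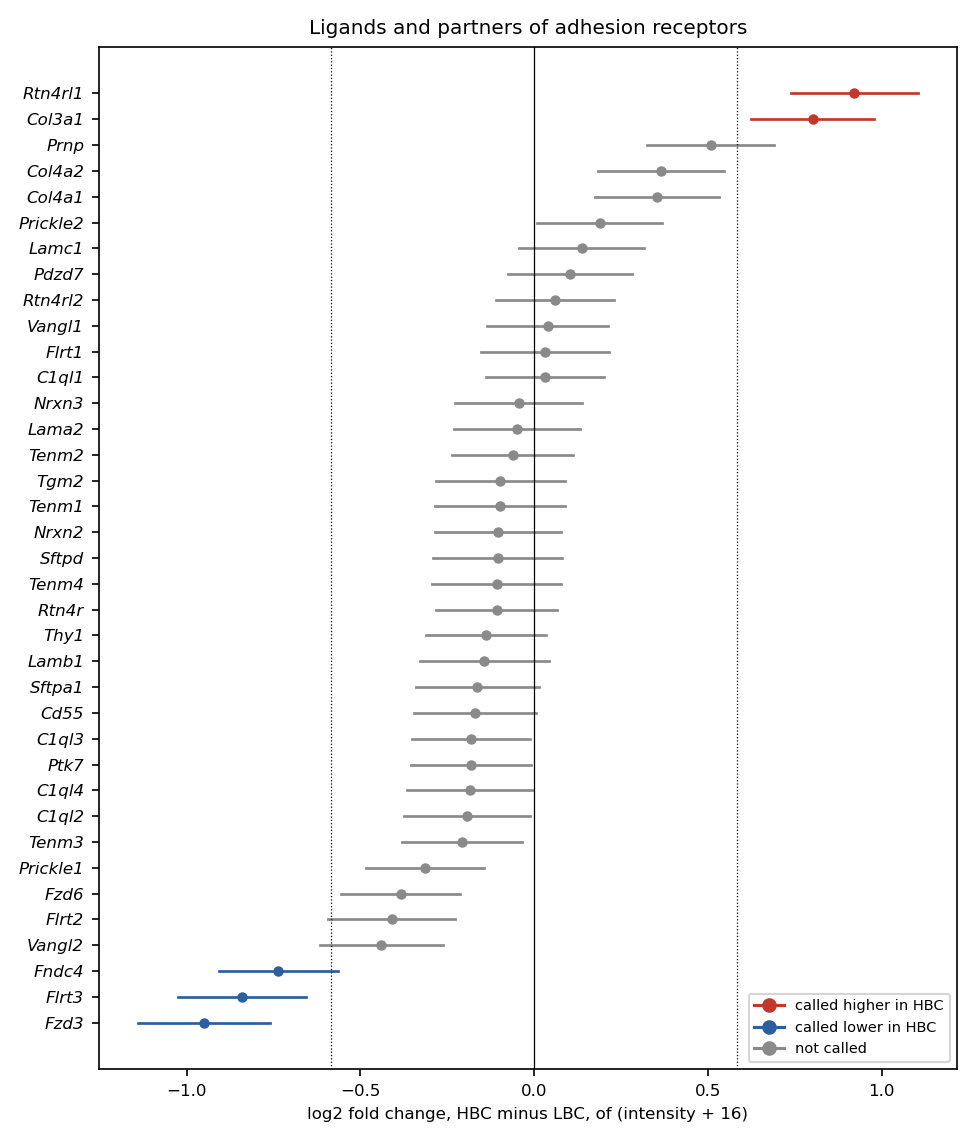
Difference in log2(intensity + 16), HBC minus LBC, for the 37 measured ligands and partners of adhesion receptors, ordered by value, with 95% confidence intervals from limma over 3 arrays per group and dotted lines at the fold threshold of 1.5. Rtn4rl1 and Col3a1 in red were called higher, and Fndc4, Flrt3 and Fzd3 in blue were called lower.

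Transducers that receptors of this family can use were looked at next. Of 23 measured genes of G protein alpha subunits, arrestins and adenylyl cyclases, 1 was called, Adcy3, an adenylyl cyclase that makes cAMP. For all genes the share called in either direction was 3.67%. Adcy3 read 511, 531 and 495 in HBC, against 279, 289 and 299 in LBC (log2 fold change of 0.79, adjusted p = 1.3e-08, limma). Another cyclase, Adcy8, had -0.58 (adjusted p = 6.5e-06, limma), just under the fold threshold, which was applied to intensities with the constant added. Without the constant, the ratio of its mean intensities, LBC over HBC, was 1.53, which is above that threshold. The median over the list was -0.03. Gnas, the gene of the stimulatory alpha subunit, shares its clusters with another gene and was left out.

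Markers of other cell types were set beside the receptors. None of the 12 macrophage, 10 endothelial, 6 mural, 7 epithelial, 7 mature adipocyte and 4 Schwann cell markers measured was called, and none was listed at 0. For all genes the share called in either direction was 3.67%. The summed intensity of the macrophage markers was 1008 to 1058 in HBC and 1131 to 1210.01 in LBC, lower in HBC without overlap. Macrophage Cd14 averaged 107 in HBC and 155 in LBC without overlap (log2 fold change of -0.48, adjusted p = 8.9e-05, limma). The median log2 fold change of the macrophage list was -0.12. Of these 12 markers, 6 were below the 90th percentile of the olfactory receptor genes (84.5) in both groups. All HBC arrays lay below all LBC arrays in 25.1% of all genes. The sum of the mature adipocyte markers was 2881 to 3047 in HBC and 2203 to 2573 in LBC. The adipocyte sum is mostly that of Fabp4, a fatty acid binding protein gene with a mean of 2363 in HBC and 1774 in LBC (log2 fold change of 0.42). Of the other adipocyte markers Retn, the gene of resistin, had 0.58 and Adipoq 0.06, while Plin1, Lep, Cidec and Lipe lay from -0.13 to -0.01. Retn passed the adjusted p (7.9e-06, limma) and missed the fold threshold with the constant added to the intensities. Without the constant, the ratio of its mean intensities, HBC over LBC, was 1.55, which is above that threshold. The part of these markers in the receptor differences was not tested.
Adipoq, the defining adipocyte hormone, stayed within the range of the olfactory receptor genes at 43.4, 43.1 and 42.4 in HBC and 46.0, 39.8 and 36.3 in LBC. The endothelial sum was 749 to 861 in HBC and 754 to 909 in LBC, and 7 of its 10 markers were below the olfactory 90th percentile in both groups. The mural sum was 4676 to 5031 in HBC and 4552 to 5241 in LBC, mostly that of Acta2 (mean 4261 in HBC and 4182 in LBC). The Schwann cell sum was 848 to 880 in HBC and 834 to 935 in LBC. These sums overlapped. Mural Rgs5 averaged 67.9 in HBC and 102 in LBC without overlap (log2 fold change of -0.49, adjusted p = 6.3e-05, limma), against a mural list median of -0.03. Endothelial Cdh5 read 54.3, 57.7 and 59.3 in HBC and 74.1, 68.7 and 65.2 in LBC, and alveolar Sftpc 44.8, 36.2 and 43.2 in HBC and 54.9, 41.1 and 32.2 in LBC. The Cdh5 values were lower in HBC without overlap, and those of Sftpc overlapped.
The sum of the epithelial markers was 967 to 1048 in HBC and 935 to 958 in LBC. Krt19 alone had a log2 fold change above 0, at 0.38, and those of Epcam, Krt8, Krt18, Cdh1, Sftpb and Sftpc lay from -0.20 to -0.02, with a list median of -0.08. Of 11 preadipocyte markers, Dcn, the gene of the matrix proteoglycan decorin, was lower (log2 fold change of -0.78) and 10 were not called. The list median was 0.18. Cd34 had -0.45, Pdgfra 0.37 and Pparg 0.33, all with an adjusted p under 0.05 (limma) and a fold below the threshold. Lum and Dpp4 of that list stayed within the olfactory range in both groups.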

How the data were processed

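RNA of HBC and LBC was hybridised to Affymetrix gene arrays, 3 per group. The authors deposited linear intensities from Affymetrix Expression Console. Probe summary and scaling between arrays were not given in the sources used here. A 2.0 ST array is named in the methods, but the identifiers are those of an earlier array version. Row identifiers were named through the platform annotation, which gave 1 gene symbol to 21789 of 35556 transcript clusters. For genes with several clusters the one with the highest mean intensity was used. All 29 receptors matched RefSeq of GRCm38.p6 by gene identifier. The array annotation names no build, so coordinates are given for start windows only.

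Values were compared as log2(intensity + 16) with limma 3.58.1 in R 4.3.3, without a replicate block, over 19938 genes, with 24.9 prior degrees of freedom. The script was tested on simulated data. Median intensity was 122 to 132 on HBC arrays and 131 to 134.6 on LBC arrays, and the number of arrays limits the precision. The members, lists and settings were chosen with earlier results of these data known. The rule named all receptors, up to 6 called genes per other list by size of change, Fndc4, Sftpd, the defining markers and called neighbours. Other partners, transducers, markers and neighbours in the text were picked after their values were seen. Other added constants, scalings, filters, tests, cluster choices and left-out arrays were tried.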

Additional observations from a re-analysis of the deposited data

How the results depend on the processing

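Over 24 alternative settings, no called receptor turned in direction. Adgrf5 had log2 fold changes from 2.00 to 3.33 in the 23 settings that kept it, with adjusted p up to 0.0021, and was absent only where a mean intensity above 100 was asked of both groups, the filter of the methods, which left 12 receptors, 2 higher and 2 lower. Of the counts of 3 higher and 2 lower receptors, that of lower ones was 5 without a fold threshold and 0 at a fold above 2. Leaving out an array gave 2 to 3 higher and 2 to 2 lower receptors, the lost call being Adgre5 without LBC replicate 1 or 2. The methods' t-test passed 11 of 29 receptors at an unadjusted p under 0.05, against 4931 of 19938 genes, and 5 after Benjamini-Hochberg adjustment, the 5 called by limma, against 1383 genes. Of the 12 receptors above an intensity of 100 in both groups, as the methods ask, 8 passed unadjusted and 4 when adjusted over all genes. Over all genes, 507 were higher and 225 lower, against 1381 and 2274 without a fold threshold and 236 and 44 at a fold above 2. Leaving out LBC replicates 2 and 3, chosen after seeing the data, left 1 LBC array and turned no called receptor in direction. Of 652 values, 5 lost a call, 4 gained one and none that was called turned; the sign differed in at least 1 setting for 7 receptors that were never called. Correlations of the deviations from the group mean at equal replicate numbers were -0.096, -0.24 and -0.50. Over all pairs of an HBC with an LBC array they ran from -0.504 to 0.495. With 3 arrays per group this cannot tell whether replicate numbers pair the arrays. With the replicate block 3 receptors were higher and 2 lower. Dim signal limits the 11 receptors named above and the size of the Adgrf5 ratio.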
